A study of Mus musculus with 4 samples.

Results

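The Meis regions described here lie in 3 windows of the mouse genome that carry the names of Fbn1, Hes1 and Smyd3. The windows were chosen by the height of their regions, since each holds a site among the highest of a peak list, so the folds of the tallest sites are given as a description. Members are all regions of either list with a summit in 500 kb of chromosome 2 (Fbn1), 800 kb of chromosome 16 (Hes1) or 900 kb of chromosome 1 (Smyd3), in mm9. They comprise 50 of the 21338 regions in forelimbs (FLs) and 53 of the 16987 regions in hindlimbs (HLs), 103 of 38325 in all.

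The study asked where the transcription factors Meis1 and Meis2 bind in limb buds. About 500 FL buds and about 500 HL buds of wild-type C57BL/6 embryos at E10.5 (36 somites) were pooled by limb, and chromatin of each pool was precipitated with 2 anti-Meis antibodies used together. A ChIP library and an input library were made from each pool, 4 libraries in all, and sequenced from a single end over 50 bp. With 1 library per limb there is no replicate error, so the limbs were not tested against each other. A whole bud mixes the cell types of mesenchyme and ectoderm.

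Meis proteins are TALE homeodomain factors that bind DNA alone or together with Pbx and Hox proteins, and they mark the proximal part of the growing limb bud. Fbn1 encodes fibrillin-1, the main component of the microfibrils of the extracellular matrix, which also hold latent TGF-beta complexes. Hes1 encodes a bHLH repressor that is a direct target of Notch signalling, and Smyd3 encodes a SET and MYND domain lysine methyltransferase.

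Fold here compares the ChIP pileup at a summit with the input background around it, and q is the adjusted p of the peak caller. A region with several summits counts once, with its highest fold and its lowest q. In the order of protein-coding genes of the GRCm38 gene table, Fbn1 lies between Dut and Cep152, Hes1 between Opa1 and Cpn2, and Smyd3 between Kif26b, a kinesin family gene, and Tfb2m. Exons, introns and gene starts were not placed, because an mm9 annotation was not used here. Hes1 is the exception, with a position known to about 1 kb.

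At the Fbn1 window the tallest region was high in both limbs. It spanned chr2:125327145-125327806 in FLs, with a fold of 19.1 (q = 1.13e-54), and chr2:125327191-125327731 in HLs, with a fold of 22.7 (q = 6.30e-61). The HL region headed its list, and the FL region was at place 9 by fold. The summits lay 3 bp apart, and each region had a single summit.

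The tallest site of the Hes1 window was likewise present in both limbs at similar height. The FL region, chr16:30244016-30244639, reached a fold of 16.3 (q = 5.54e-45), and chr16:30243963-30244489 in HLs reached 17.7 (q = 4.08e-52). They took place 22 in FLs and place 5 in HLs, again with summits 3 bp apart. The site is about 179 kb from Hes1, on the side of Cpn2, which encodes a subunit of carboxypeptidase N.

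At Smyd3 the limbs differed in fold. The FL region chr1:181403944-181404693 had a fold of 21.3 (q = 4.60e-60) and place 4, whereas the overlapping HL region chr1:181403993-181404488 had a fold of 6.68 (q = 1.23e-19) and place 294. Their summits were 15 bp apart, so the same site was called in both lists. By p in place of fold, the HL region stood at place 67.

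**Figure D1:**
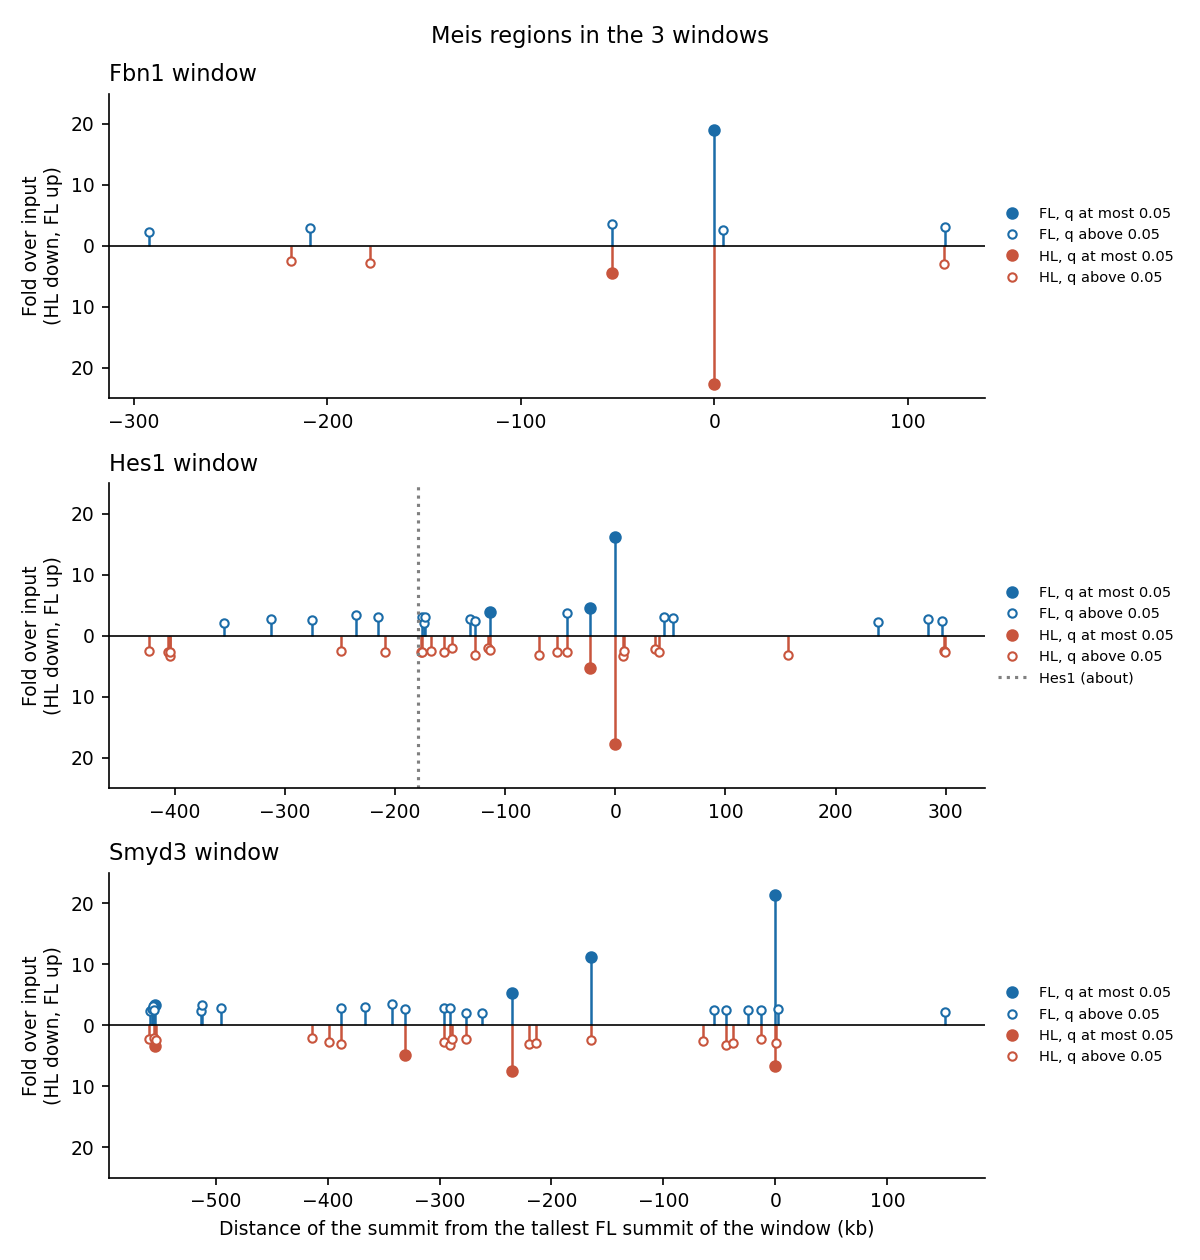
Fold over input of every region in the 3 windows against the distance (kb) of its summit from the tallest FL summit of the window, with FLs drawn upward and HLs downward, filled points for q at most 0.05 and a dotted line for the approximate position of Hes1. The Fbn1 and Hes1 sites are tall in both directions, whereas the Smyd3 site reaches 21.3 in FLs and 6.68 in HLs, and a 2nd tall FL region 164 kb away has a HL partner of 2.43.

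Regions next to these in the order of folds were close to them, apart from the HL region at Fbn1. In FLs, the Fbn1 region (19.1) stood between folds of 19.1 and 18.2, the Hes1 region (16.3) between 16.3 and 16.2, and the Smyd3 region (21.3) between 22.4 and 20.4. In HLs, the fold next below the Fbn1 region (22.7) was 18.6, and the Hes1 region (17.7) stood between 18.2 and 17.2. The highest HL region of the Smyd3 window (7.48, place 189) had the same fold as both of its neighbours. The HL region at Fbn1 led its list by fold but was at place 2 by p.

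**Figure D2:**
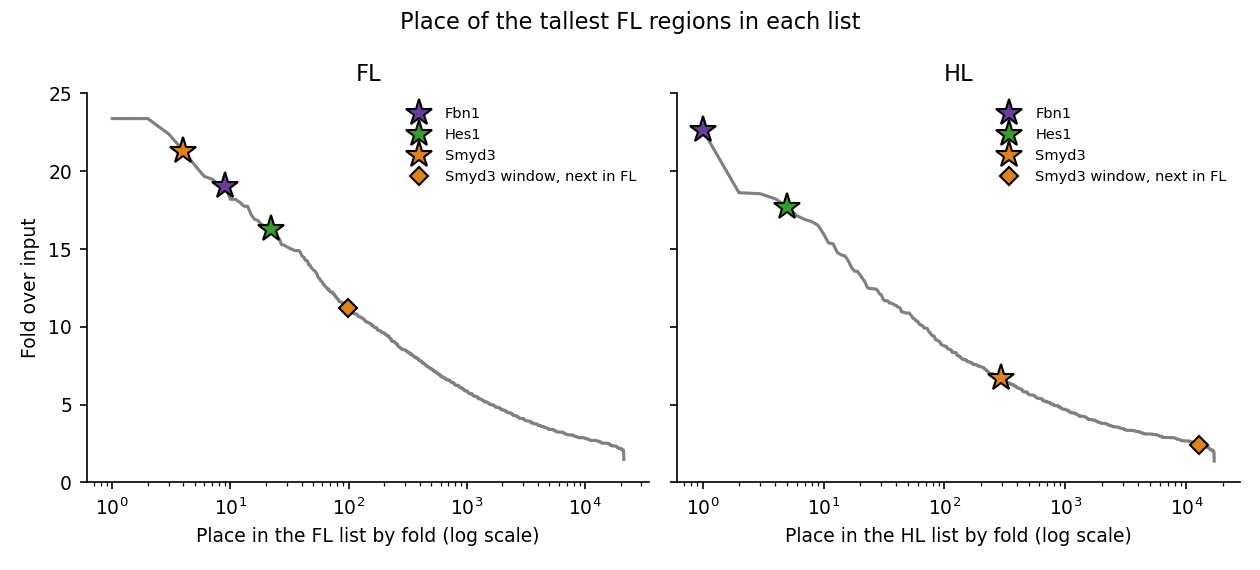
Fold over input of all regions against their place by fold (log scale) in the FL list (left) and the HL list (right), with stars for the tallest FL region of each window and its HL partner and a diamond for the next FL region of the Smyd3 window. The Smyd3 star moves from place 4 in FLs to place 294 in HLs, and the diamond from place 98 to place 12829.

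The tallest FL regions and their HL partners were wide, as were other high regions of the lists. FL widths were 662 bp (Fbn1), 624 bp (Hes1) and 750 bp (Smyd3), and the partners measured 541, 527 and 496 bp. The highest HL region of the Smyd3 window, which is another one, was 260 bp wide. The medians were 166 bp over the FL list and 132 bp over the HL list, but 632.5 bp and 514.5 bp over the 100 highest regions of each. A single summit was found in 55 of the 100 highest FL regions and in 64 of the 100 highest HL regions, and 99 and 100 of them overlapped a region of the other limb. The width, the single summit and the overlap of these sites are thus common among high regions.

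The windows held many low regions besides the tall ones. FLs had 6 regions in the Fbn1 window, 19 in the Hes1 window and 25 in the Smyd3 window, and HLs had 5, 26 and 22. Over the 3 windows this makes 22.7 regions per Mb in FLs and 24.1 in HLs, against 8.11 and 6.46 over the whole lists. By window, the FL density was 12.0 per Mb at Fbn1 (9.59 on chromosome 2), 23.8 at Hes1 (6.74 on chromosome 16) and 27.8 at Smyd3 (6.47 on chromosome 1). The corresponding HL densities were 10 at Fbn1 (8.57 on the chromosome), 32.5 at Hes1 (4.49) and 24.4 at Smyd3 (5.14). The Hes1 and Smyd3 windows were thus denser in regions than their chromosomes, and the Fbn1 window was near its chromosome. Whether other windows of this size are as dense was not tested.

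Median folds in the windows, 2.81 in FLs and 2.68 in HLs, were close to the 2.78 of both lists. Of the 50 FL regions, 8 had a q of at most 0.05 (16%, 95% Wilson interval 8.34 to 28.5%), against 17.4% of the whole FL list, as did 8 of the 53 HL regions (15.1%, 7.85 to 27.1%), against 10.1% of the HL list. These intervals cover counting error only. Without the tallest region of each window, 5 of 47 FL regions (10.6%) and 5 of 50 HL regions (10%) had such a q. The shares of called regions were therefore near those of the lists.

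In the Fbn1 and Hes1 windows the tallest region had no near rival. At Fbn1 the tallest fold was 5.31 times the next highest in FLs and 5.04 times in HLs, and at Hes1 3.62 and 3.31 times. At Smyd3 the same ratio was 1.91 in FLs and 1.12 in HLs. In HLs, the highest region of the Smyd3 window lay elsewhere, 235 kb from the tallest FL summit.

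FL and HL regions overlapped at 16 sites in the windows, 2 at Fbn1, 5 at Hes1 and 9 at Smyd3. This is 32.0% of the FL regions (20.8 to 45.8%), against 22.6% over the list, and 30.2% of the HL regions (19.5 to 43.5%), against 29%. All 8 FL and all 8 HL regions with a q of at most 0.05 were among them, where 67% of such FL regions and 89.3% of such HL regions of the lists overlapped a region of the other limb. The 8 of each limb include tall sites that chose the windows, so nothing is read from that difference. The called regions make 10 sites, of which 6 had such a q in both limbs, 2 in FLs alone and 2 in HLs alone. Of the 2856 overlapping pairs of the lists with such a q in either limb, these groups made up 42%, 45.3% and 12.7%. The regions found in a single limb, 34 in FLs and 37 in HLs, had folds of 2.08 to 3.53 and 2.03 to 3.32. None reached such a q, against 7.44% of all regions without an HL partner in FLs and 1.53% of those without an FL partner in HLs.

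The last regions inside the 6 limits of the windows, 12 over both limbs, lay 20.7 to 295 kb from the limit. Their folds were 2.1 to 3.13, and none had a q of at most 0.05. The first 12 outside lay 1.82 to 707 kb beyond the limit, with folds of 2.08 to 3.82, and 1 had such a q. These folds lie around the list medians of 2.78.

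The other called site of the Fbn1 window lay 52.7 kb from the tallest summit. Its fold was 3.59 in FLs (q = 0.499), at chr2:125274544-125274764, and 4.50 in HLs (q = 0.00466), at chr2:125274569-125274738. The summits were 10 bp apart. The ChIP fragments recovered there, by the method described further on, were 18 in FLs and 19 in HLs, which on the scale of the input libraries are pileups of 7.84 and 11.1. The site was thus called in HLs alone.

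In the Hes1 window 2 further sites were called. At 22.6 kb from the tallest summit, chr16:30221539-30221788 had a fold of 4.50 in FLs (q = 0.00530) and its HL partner, chr16:30221563-30221738, a fold of 5.35 (q = 4.31e-04), with summits 11 bp apart. About 65.3 kb from Hes1, chr16:30130225-30130412 had a fold of 3.90 in FLs (q = 0.00931), and the HL region, chr16:30130212-30130500, a fold of 2.43 (q = 1). The first site was called in both limbs and the second in FLs alone.

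Near Hes1 itself no tall region was found. The nearest summits were about 3.62 kb away in FLs, in chr16:30068535-30068713 with a fold of 3.09 (q = 0.134), and about 3.03 kb away in HLs, in chr16:30067969-30068071 with a fold of 2.74 (q = 1). Neither list had a summit within 1 kb of that position. Within 100 kb of it there were 9 FL regions with folds up to 3.90, of which 1 had a q of at most 0.05, and 10 HL regions with folds up to 3.22, of which none had. The tall site of the window thus lay far from the gene.

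The Smyd3 window held 4 further called sites, and they varied in direction. At 164 kb from the tallest summit, chr1:181239676-181239953 had a fold of 11.2 in FLs (q = 8.85e-20, place 98), while the overlapping HL region chr1:181239646-181239758 had a fold of 2.43 (q = 1, place 12829). The summits of that pair were 131 bp apart, and 83 bp were shared. This was the other large difference between limbs in the windows.

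At 235 kb the order was the opposite. The FL region chr1:181168765-181169105 reached a fold of 5.36 (q = 7.53e-05), against 7.48 in the HL region chr1:181168865-181169124 (q = 9.14e-10), with summits 3 bp apart. At 331 kb, chr1:181073296-181073548 had a fold of 2.65 in FLs (q = 1) and chr1:181073359-181073666 a fold of 4.80 in HLs (q = 0.00261). Both sites had higher folds in HLs. At 331 kb, however, each limb had 22 ChIP fragments. On the scale of the input libraries these are pileups of 9.58 in FLs and 12.9 in HLs, over local backgrounds of 3 and 1.9.

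The most distant called site, 554 kb from the tallest summit, was the same in both limbs. Its fold was 3.36 in FLs (q = 0.00286), at chr1:180850231-180850761, and 3.39 in HLs (q = 0.00617), at chr1:180850313-180850670, with summits 4 bp apart. It lay among 5 FL and 4 HL regions within 10 kb. Around the other called sites of the windows, the same distance held 1 or 2 FL regions and 1 to 3 HL regions.

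Across the windows, the FL to HL ratio of folds was at least 1.5 at 3 of 16 sites, against 22.2% of the 4813 overlapping pairs of the lists, and at most the inverse at 1 of 16, against 7.65%. These shares were near the background. The median log2 ratio was -0.05 over the window pairs and 0.17 over all pairs, whose quartiles were -0.18 and 0.54. At the tallest pairs the log2 ratio was -0.25 for Fbn1, -0.12 for Hes1 and 1.67 for Smyd3. The Fbn1 value lay just below the lower quartile, the Hes1 value between the quartiles and the Smyd3 value far above the upper one. These pairs were chosen by height in a list, which can tilt their ratios toward that limb, so nothing is read from these places. A ratio of at least 3 was found in 46 of all pairs (0.956%), 2 of them in the Smyd3 window, and in 5 of the 1200 pairs with a q of at most 0.05 in both limbs. Those in the Smyd3 window are the tallest pair, chosen by height, and the pair with summits 131 bp apart. Nothing is read from how rare such ratios are.

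**Figure D3:**
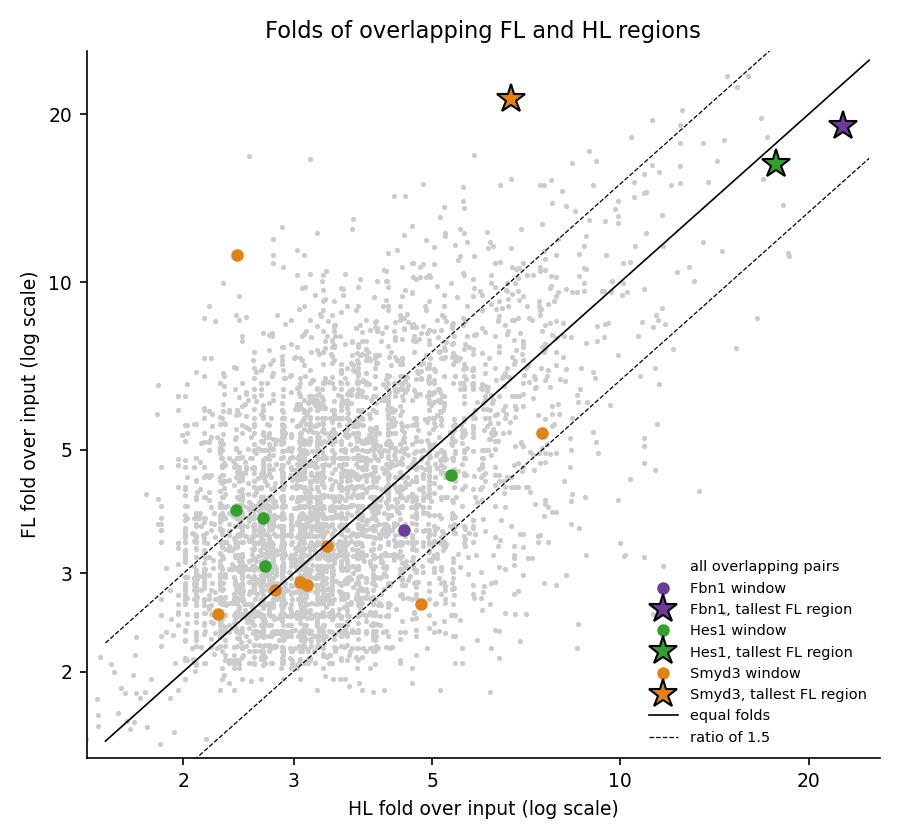
FL fold against HL fold over input (log scales) for the 4813 overlapping pairs (grey) and the 16 pairs of the windows (coloured, with stars for the tallest FL regions), with a solid line for equal folds and dashed lines for a ratio of 1.5. The Fbn1 and Hes1 stars lie near the line of equal folds at the top of the cloud, and the Smyd3 star (21.3 in FLs, 6.68 in HLs) and 1 other Smyd3 point (11.2 and 2.43) lie far above it.

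Because a fold divides the ChIP signal by a local background, both parts were recovered from the fold and p of each summit, which the peak caller computes from the same pileup and background. All 22906 FL and 17810 HL summits had at least 1 solution in whole ChIP fragments, and 85.3% and 99.7% had a single one, including both summits of all 16 window pairs. The local background cannot fall below a genome-wide value, here 1.46 in FLs and 1.58 in HLs. Pileups are scaled to the input library, so that 1 ChIP fragment counts 0.436 in FLs and 0.587 in HLs.

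At the Fbn1 site the pileup was 56.2 in FLs and 57.5 in HLs, from 129 fragments (95% Poisson interval 108 to 153) and 98 fragments (79.6 to 119). The local background was 2 in FLs and 1.58 in HLs, the latter being the genome-wide value. The FL value equals 2 input fragments at the summit (95% Poisson interval 0.242 to 7.22). At the Hes1 site the pileup was 50.1 in FLs, from 115 fragments (94.9 to 138), and 57.5 in HLs, from 98 fragments. The HL library thus gave the same pileup at Fbn1 and Hes1, and the folds of 22.7 and 17.7 differed through the backgrounds of 1.58 and 2.30.

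At the Smyd3 site the pileup was 58.4 in FLs, from 134 fragments (112 to 159), and 45.8 in HLs, from 78 fragments (61.7 to 97.3). The local background there was 1.79 in FLs and 6.00 in HLs. That HL background is 3.8 times the genome-wide value, and 9 of the 1686 HL regions with a q of at most 0.05 and a single solution (0.534%), this one included, had one at least as high. It equals 6 input fragments stacked at the summit (95% Poisson interval 2.20 to 13.1) or 60 over 1 kb, which the values cannot tell apart. Over 10 kb it would take 600, whereas the HL region 0.838 kb from the tallest FL summit had a background of 1.65. Most of the difference in fold at Smyd3 therefore came with the input term, and a smaller part with the ChIP term.

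With the genome-wide background in place of the local one, the folds of the Smyd3 site became 24.1 in FLs and 18.1 in HLs, a ratio of 1.33 in place of 3.19. The HL region then stood at place 26 of 16944 regions with a single solution, and the FL region at place 10 of 18197. The Fbn1 folds became 23.2 and 22.7, and the Hes1 folds 20.7 and 22.7. In FLs these put Fbn1 at place 13 and Hes1 at place 22, and in HLs both shared place 5, with 98 fragments each. On that scale all 3 sites were high in both limbs. Why the HL input is high at the Smyd3 summit was not tested.

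The recovered values imply 52.8 M ChIP fragments in FLs and 50.4 M in HLs. Per M of these, the Smyd3 site had 2.54 fragments in FLs and 1.55 in HLs. The ratio of these was 1.64, with an interval of 1.23 to 2.19 from counting error alone, and it describes these libraries, not the limbs. At Fbn1 the values were 2.44 and 1.95 (ratio 1.26, 0.958 to 1.65) and at Hes1 2.18 and 1.95 (ratio 1.12, 0.847 to 1.48). Within each limb the intervals of the fragment counts of the 3 sites overlap, so their order is not resolved by counting.

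The FL site 164 kb from the tallest Smyd3 summit behaved differently. Both limbs had the genome-wide background there, and the pileup was 26.6 in FLs, from 61 fragments (46.7 to 78.4), and 5.28 in HLs, from 9 fragments (4.12 to 17.1). Its ratio of 4.60 was therefore the same with either background, and it was 6.46 per M fragments (3.19 to 14.8). Since the HL region does not reach the FL summit, these values compare summits 131 bp apart, and the HL pileup at the FL summit itself was not analysed here. With summits at most 100 bp apart required, the regions would not count as a pair. Between these summits the pileups differed and the backgrounds did not exceed the genome-wide values.

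Among the 4 window sites past a ratio of 1.5 in either direction, this was the only 1 that was past it with both backgrounds. The ratio at the Hes1 site about 65.3 kb from the gene went from 1.61 to 1.14, with local backgrounds of 2.38 in FLs and 4 in HLs. At the Smyd3 site 331 kb away it went from 0.552 to 0.797, with 22 fragments in each limb. The site at 235 kb moved the other way, from 0.716 to 0.660, with 28 fragments in FLs and 34 in HLs, and so came past the ratio on that scale alone. So did a low site 13 kb from the tallest Smyd3 summit, named after its values were seen, where folds of 2.54 in FLs and 2.27 in HLs gave a ratio of 1.12 and the genome-wide background 1.55, from 21 and 10 fragments. With the genome-wide background, then, 2 sites were past the ratio toward FLs and 1 toward HLs. Over the lists, 653 of the 1052 solved pairs with an FL to HL ratio of at least 1.5 (62.1%) kept it with the genome-wide background, as did 144 of the 317 at most the inverse (45.4%).

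**Figure D4:**
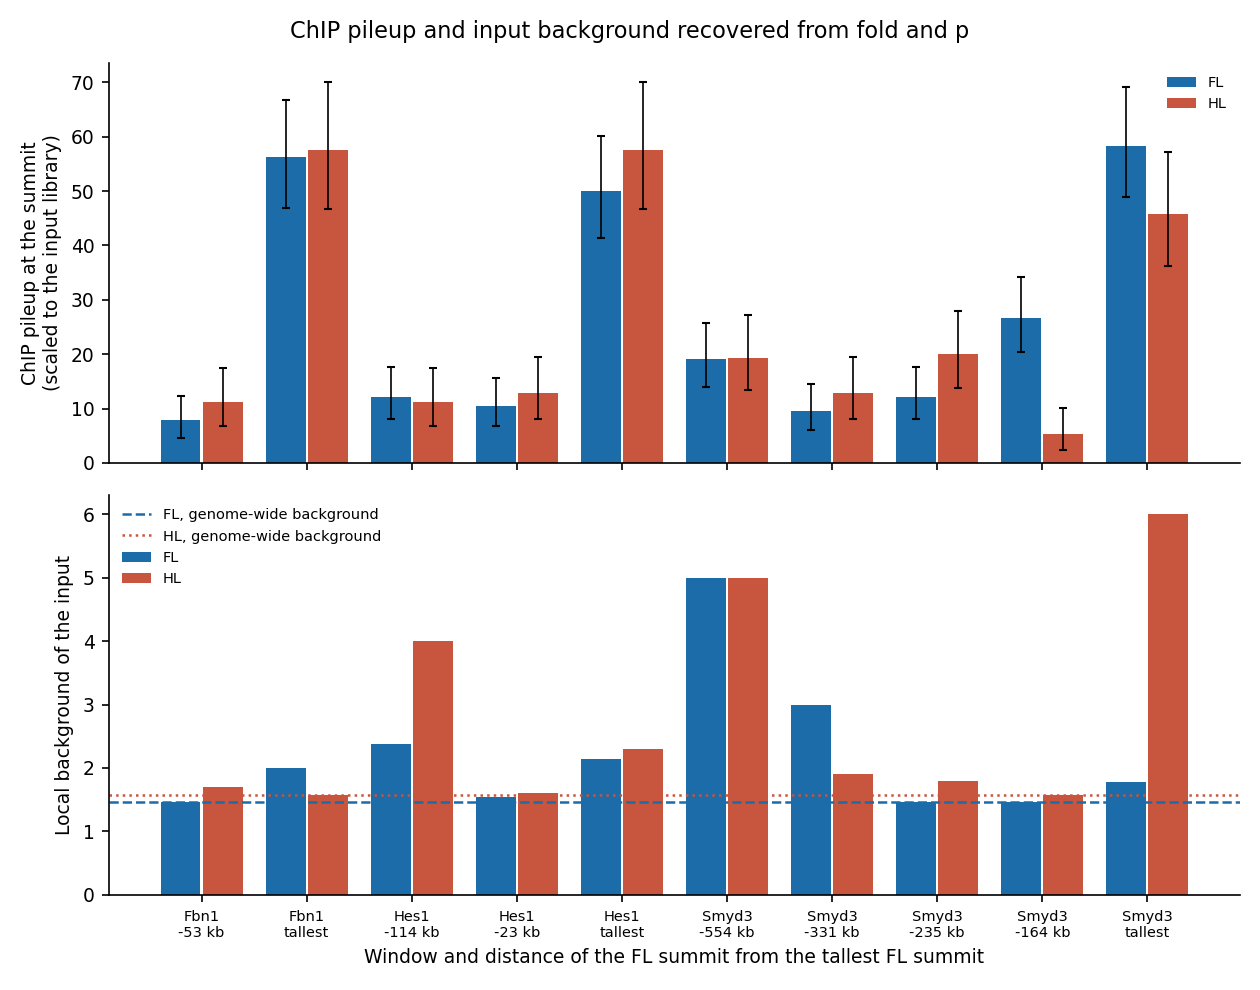
ChIP pileup at the summit (top, scaled to the input library, with 95% Poisson intervals of the fragment count) and local background of the input (bottom) in FLs and HLs at the 10 sites with a q of at most 0.05 in either limb, named by window and by distance from the tallest FL summit, with lines for the genome-wide backgrounds. At the tallest Smyd3 site the pileups are 58.4 and 45.8 and the backgrounds 1.79 and 6.00, whereas 164 kb away the pileups are 26.6 and 5.28 over the genome-wide backgrounds.

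The shared site 554 kb from the tallest Smyd3 summit had a local background of 5 in both limbs. Its pileups, 19.2 in FLs from 44 fragments and 19.4 in HLs from 33, were above those of the site at 235 kb in FLs (12.2) and near that of the same site in HLs (20). Its lower folds thus came with the raised background, which was alike in the FL and HL input.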

How the data were processed

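For each limb, the authors aligned reads to mm9 by means of BWA and ran MACS2, with its own input as control and with peaks split at their summits. The deposited fold is a ratio, ChIP pileup plus 1 over local input background plus 1, as the authors' caller gives it. The −log10 p and the −log10 q, as deposited, are those of the same caller. The deposited score restates −log10 p multiplied by 10. The least certain entries of the lists had p-values of 0.022 in FLs and 0.0217 in HLs.

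Summits with the same start and end were merged into 1 region, and regions sharing at least 1 bp were taken as overlapping, with the HL region of the highest fold as partner. Pileup and background were solved from fold and Poisson p, within 0.03 of a whole fragment. Implied fragments per library rest on the caller's default mouse genome size and on the shortest region (119 bp in FLs, 100 bp in HLs) as fragment length. The recovery and the overlap count were tested on simulated data. Intervals are 95% Wilson for shares, exact Poisson for fragments and exact binomial for their ratios. No p was computed between limbs.

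Named regions are the tallest of each window, those with q at most 0.05, the nearest to Hes1, and those next in the order of folds. The members and lists were chosen with earlier results of these data known. The position of Hes1 is the approximate one in the definition of its window. The gene table (RefSeq, GRCm38) served for names and neighbours alone, no coordinate was converted, and bound sequences are not shown since no mm9 genome was used here. Figures were drawn with matplotlib 3.10.9, and all else was computed with scipy 1.17.1, pandas 2.3.3 and numpy 2.4.6 under Python 3.11.15.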

Additional observations from a re-analysis of the deposited data

How the results depend on the processing

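Over the 3 windows, the 50 FL and 53 HL regions became 15 and 20 with p at most 0.0005, and 8 and 8 with p at most 1e-05. The 8 regions with q at most 0.05 in each limb became 5 and 5 when a fold of at least 5 was also required. The share of FL regions overlapped in HLs rose from 32.0 to 53.3% when both lists were limited to p at most 0.0005. Of the values of single windows, 17 moved by more than 1.5 times or out of the interval and 43 did not, and the 19 FL regions at Hes1 became 29 in the widened window. Ranked by −log10 p, the tallest HL region at Fbn1 moved from place 1 to place 2. The FL to HL log2 ratio at the tallest pairs became -0.45 (Fbn1), -0.32 (Hes1) and 1.48 (Smyd3) after division by the median fold of the overlapping regions. For alternatives chosen after seeing the data, it became 0.034, -0.13 and 0.41 with the genome-wide background, and 0.33, 0.16 and 0.71 for fragments relative to library size. The signs at Fbn1 and Hes1 thus vary with the scale, while Smyd3 was higher in FLs on each scale tried. All scales use the same libraries and sites chosen by height, so a shared sign is no separate evidence of a difference between limbs. Of the results over all windows and at the tallest sites, the other 30 values stayed about the same. That is, they were within 1.5 times, within the interval of the share or at the same log2 ratio to 2 decimals. The alternatives included wider windows, regions wholly inside them, summits counted singly, a q of at most 0.01 and stricter overlap. Motif windows were not run, as no mm9 genome was used. No library could be left out with 1 per limb. No paired analysis was possible because each limb had 1 ChIP library and no test was made. Depth limits the ChIP counts of low sites: a summit of 9 fragments has an interval of 4.12 to 17.1. It also limits the local backgrounds of tall sites. Taken as 6 input fragments, the HL background at the tallest Smyd3 site has an interval of 2.20 to 13.1.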
